A study of Mus musculus with 12 samples.

Results

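Of 12 libraries made from mouse colonic mucosa, 3 stood apart by the share of their counts that fell in 11 annotated rows whose transcripts resemble mitochondrial ones. These 3 libraries, wild type 3, wild type 5 and Sgo1-/+ 3, were chosen by that share, the sum over the 11 rows divided by the sum over all rows, with a limit of 30%. They are compared here with the other 9, which are 4 wild type and 5 Sgo1-/+ libraries. The split was made from the data and is no group of the study, whose own groups are the genotypes wild type and Sgo1-/+ with 6 libraries each. Sgo1 encodes shugoshin 1, which guards the cohesion of sister chromatids at the centromere. Mice of both genotypes had received the colon carcinogen azoxymethane (4 mg/kg, given 2 times weekly from week 8 to week 12 of life), and mucosa was taken at 9 months, so no library comes from an untreated animal. The labels number the samples but do not say that each came from its own mouse, so the tests reflect the spread among these samples, which may be technical.

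Mitochondria carry a small genome of their own, which encodes subunits of the respiratory chain and of ATP synthase and the RNAs with which the organelle translates them. Its messenger RNAs bear short poly(A) tails and can be caught with nuclear messages when mRNA is purified. Most mitochondrial proteins are encoded in the nucleus and imported. Nuclear chromosomes also hold pasted copies of mitochondrial DNA, and annotated rows in such copies can take up reads of mitochondrial RNA where the sequences are nearly the same. Colonocytes rely on mitochondria to burn butyrate and other fatty acids.

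None of the 11 rows lies on the mitochondrial chromosome, and each had a counterpart among the mitochondrial transcripts of the GENCODE annotation (build GRCm38, the same assembly as mm10). Gm13340, a pseudogene at chr2:22588103-22589647 on the minus strand, matched mt-Co1, the first subunit of cytochrome c oxidase, at 97.6% identity over 1545 bases. Gm13341, a pseudogene at chr2:22587291-22587962 on the minus strand, matched mt-Co2 of the same enzyme at 95.9% over 684 bases. Gm11410, a pseudogene at chr4:80003989-80005131 on the plus strand, matched mt-Cytb, the cytochrome b of complex III, at 92.9% over 1142 bases. Gm10222, listed as protein coding at chr1:24612404-24612700 on the minus strand, matched mt-Nd4l, a complex I subunit, at 100% over 294 bases. Of the others, Gm11407 and AC154271.1 matched mt-Nd5, Gm11408 mt-Nd6, Gm13339 mt-Nd2, Gm20594 the large ribosomal RNA mt-Rnr2, Gm11512 mt-Co1 and Gm12155 mt-Co2, at 88.5% to 96.7%. The first 60 aligned bases of 4 rows and of their counterparts are shown because they make plain how little tells them apart. Capitals mark the bases that differ within a pair.
Gm13340: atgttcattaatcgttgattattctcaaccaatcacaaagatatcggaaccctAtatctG
mt-Co1: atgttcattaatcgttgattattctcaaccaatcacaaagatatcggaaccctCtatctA
Gm13341: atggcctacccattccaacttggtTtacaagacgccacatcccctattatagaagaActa
mt-Co2: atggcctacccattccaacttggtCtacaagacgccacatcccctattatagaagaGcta
Gm11410: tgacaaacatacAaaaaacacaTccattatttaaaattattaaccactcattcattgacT
mt-Cytb: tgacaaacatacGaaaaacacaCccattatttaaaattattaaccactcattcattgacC
Gm10222: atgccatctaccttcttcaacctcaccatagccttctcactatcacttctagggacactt
mt-Nd4l: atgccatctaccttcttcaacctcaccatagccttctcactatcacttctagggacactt

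With the mitochondrial base first, the position counted from 1 at the 5′ end of the mitochondrial transcript and the base of the row last, the differences are C54A and A60G for Gm13340, C25T and G57A for Gm13341, and G14A, C24T and C61T for Gm11410. The windows of Gm10222 and mt-Nd4l are the same. The files give counts per row and no reads, so from which of the matching sequences a counted read came cannot be told apart here.

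The share of counts in the 11 rows was 40.3% in wild type 3, 38.6% in wild type 5 and 40.2% in Sgo1-/+ 3. In the other wild type libraries it ran from 15.3% to 23.6%, and in the other Sgo1-/+ libraries from 11.2% to 21.6%. The values just inside and just outside the limit were thus 38.6% and 23.6%, and since the share chose the libraries this gap is a description. Gm13340 alone took 24.7% ± 0.479 of all counts in the 3 libraries (SD, n = 3) and 10.7% ± 2.83 in the others (n = 9). Gm13341 took 6.95% ± 0.336 against 3.16% ± 0.846, and Gm11410 took 4.48% ± 0.692 against 2.03% ± 0.574. Each of the other 8 rows had a mean of at most 0.829%, the value of Gm11407 in the 3 libraries.

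**Figure D1:**
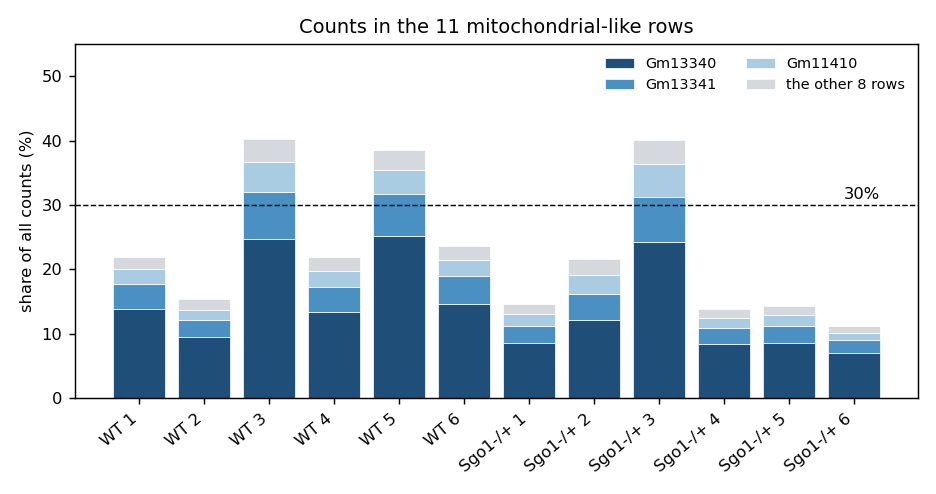
Share of all counts of each library (vertical axis, percent) in Gm13340, Gm13341, Gm11410 and the other 8 rows together, with the 30% limit dashed. WT stands for wild type, and wild type 3, wild type 5 and Sgo1-/+ 3 reach 38.6% to 40.3% while the other 9 libraries reach 11.2% to 23.6%.

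The make-up of the sum was much alike in both sets. Gm13340 was 62.3% ± 2.57 of the counts in the 11 rows in the 3 libraries and 60.7% ± 2.01 in the 9. For Gm13341 the values were 17.5% and 18.0%, and for Gm11410 11.3% and 11.5%. The ratio of mean shares between the sets ran from 1.90 for Gm20594, the ribosomal RNA counterpart, to 2.31 for Gm13340. Gm12155 had at most 4.5 counts in a library, so its ratio says little.

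Outside the 11 rows the 3 libraries were shallow. They held 3508199 to 4026512 counts there, against 5142377 to 8793038 in the other 9. These counts are part of the total in the share that chose the libraries, so the gap is a description. Genes with a level of at least 1 CPM outside the 11 rows (CPM, a count scaled to a common library size, is the unit of level from here on, with TMM factors for gene levels and plain totals for this count) numbered 15126, 16505 and 16101 in the 3 libraries and 14524 to 16772 in the 9 (exact two-sided permutation p = 0.155). A suffix stands in the column names of 4 of the other 9 libraries and of none of the 3, and the sources used here do not say what it marks.

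AY036118, a row listed as a processed pseudogene on chromosome 17 that lies outside the 11, was a further abundant row. It took 13.4% of the remaining counts in wild type 3, 10.7% in wild type 5 and 7.74% in Sgo1-/+ 3. The other 9 libraries ran from 3.22% to 9.00% with a median of 4.90%, so Sgo1-/+ 3 lay below the highest of them, wild type 4. The means, 10.6% ± 2.84 and 5.52% ± 1.72, differed (exact two-sided permutation p = 0.0182). The call was lost without wild type 3, where the difference was 3.68 percentage points, and without wild type 5, where it was 5.06 percentage points (exact permutation p = 0.0727 for both). With so few libraries the p of this test moves in coarse steps, so a lost call need not mean a smaller difference. With no library left out the difference was 5.09 percentage points. Among the 8 libraries whose columns lack the suffix it was 4.94 percentage points (exact permutation p = 0.0714). Lars2, whose protein charges mitochondrial leucine tRNA, took 1.71% ± 0.656 against 1.03% ± 0.393 (exact two-sided permutation p = 0.0818). AY036118 and Lars2 were the 2 rows tested from a list of ribosomal RNA and other abundant noncoding RNAs. Whether the counts in the Lars2 row came from its messenger RNA was not tested.

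A principal component analysis of log2 CPM without the 11 rows placed wild type 5, Sgo1-/+ 3 and wild type 3 at 91.9, 78.8 and 48.0 on the first component, which held 45.3% of the variance. Of the other 9 libraries 8 lay between -66.0 and -5.69. The remaining one, wild type 1, lay at 60.7 although its share of the 11 rows was below the limit of 30%. The median distance between a pair of libraries, as the root mean square difference of log2 CPM, was 0.879 within the 3, 0.753 within the 9 and 1.07 between the sets. The ranges overlapped, with 0.849 to 0.893 within the 3 and 0.813 to 1.37 between the sets. Sgo1-/+ 3 lay nearest to wild type 1 (0.813), and wild type 3 lay nearest to wild type 6 (0.853), both among the 9.

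**Figure D2:**
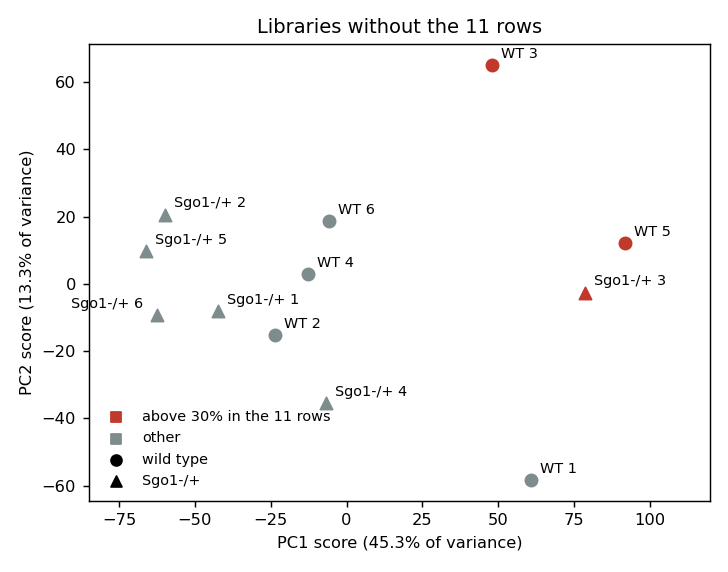
Scores of the 12 libraries on the first (45.3% of variance) and second (13.3%) principal component of log2 CPM, computed without the 11 rows. The 3 libraries above 30% (red) lie at 48.0 or more on the first component, and so does wild type 1, at 60.7.

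Gene by gene, the 3 libraries differed broadly from the other 9. With genotype as a term in edgeR's quasi-likelihood test, 3797 of 15524 genes (24.5%) passed a Benjamini-Hochberg adjusted p of 0.05. Of these, 1973 (12.7% of all tested) were higher in the 3 libraries and 1824 (11.7%) lower. In 1351 genes (8.7%) all 3 libraries lay above all 9, and in 1425 (9.18%) all 3 lay below. The balance of directions rests on the scaling. With total counts in place of TMM factors, 1367 genes were higher and 3194 lower, and the median log2 change of all genes moved from -0.025 to -0.18. The number of calls also depends on Sgo1-/+ 3, the one library of that genotype among the 3. With genotype as a term, a fit without it sets wild type 3 and wild type 5 against the other 4 wild type libraries. A call lost there, here or below, thus does not show a smaller change. The log2 change of Neat1 was 0.96 with Sgo1-/+ 3 and 0.99 without it, and that of Klf4 0.86 and 0.76. Without Sgo1-/+ 3, 656 genes passed, 327 higher and 329 lower. Of the 3797 genes, 3796 then had the same direction and 626 kept the call. Among the 6 wild type libraries alone 22 genes passed. Between the genotypes, the test of a difference in the contrast called 0 of 17758 genes (0.0%) in edgeR, where 986 had an unadjusted p under 0.05. That test rests on 1 Sgo1-/+ library of the 3, so it does not show that the contrast is alike in the genotypes. The filter on low counts asks for 1.56 CPM in at least 3 libraries. Of the 15524 genes tested, 931 met it only with the help of the 3 libraries. These included 177 of the 1973 higher genes and 0 of the 1824 lower ones.

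Snx22, which encodes a sorting nexin, had the smallest p. Its level was 64.2, 56.9 and 58.1 CPM in wild type 3, wild type 5 and Sgo1-/+ 3, the order kept below, and 1.05 to 4.54 CPM in the other 9, with a median of 2.47. The sets lay far apart, and the log2 change was 4.76 ± 0.28 (SE; adjusted p = 4.43e-06). Snx22, at chr9:66065176-66069731 on the minus strand, overlaps Ppib, at chr9:66060169-66066629 on the plus strand, which encodes the cyclophilin B of the endoplasmic reticulum. Ppib was lower, at 87.9, 79.4 and 89.2 CPM in the 3 libraries and 151 to 202 CPM in the 9 (log2 change -1.07 ± 0.11, adjusted p = 0.000272). Of the counts of the pair, Snx22 held 39.3% to 42.2% in the 3 libraries and 0.489% to 2.35% in the others. Their sum was 145 ± 8.13 CPM in the 3 libraries and 185 ± 15.9 CPM in the 9. The sources used here do not say how the counting treated strand, so reads of overlapping genes may be split between them in ways these counts cannot show.

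The Ugt1a rows were divided in a like manner. These genes encode enzymes that attach glucuronic acid to bilirubin, drugs and other compounds, and their transcripts join a first exon of their own to exons that all share. Ugt1a9 was at 54.5, 36.7 and 40.5 CPM, and Ugt1a8 and Ugt1a10 held the same values as Ugt1a9 in each of the 3 libraries. In the other 9 libraries Ugt1a9 was at 0 to 1.10 CPM, Ugt1a8 at 0 to 2.84 CPM and Ugt1a10 at 0.109 to 2.33 CPM. Rows with the same value in a library cannot be taken as separate measurements, and Ugt1a8 and Ugt1a9 met the filter only through the 3 libraries where they are high, so their levels are a description. Ugt1a5 and Ugt1a2 were also higher (log2 change 3.01 ± 0.35 and 4.08 ± 0.66, adjusted p = 0.000669 and 0.00269). Ugt1a2 held the same values as Ugt1a9 in wild type 5 and Sgo1-/+ 3, and 54.8 CPM in wild type 3. Ugt1a5 was at 55.5, 37.0 and 41.1 CPM, close to Ugt1a9 in each library. Neither row can thus be taken as a measurement separate from Ugt1a8, Ugt1a9 and Ugt1a10. Ugt1a6b did not pass (adjusted p = 0.657). Ugt1a1, Ugt1a6a and Ugt1a7c were lower. Ugt1a1 was at 84.9, 58.5 and 56.3 CPM against 120.4 to 243 CPM (-1.46 ± 0.20, adjusted p = 0.0013), without overlap, and Ugt1a6a at 90.6, 64.9 and 79.8 CPM against 75.4 to 206 CPM (-0.79 ± 0.24, adjusted p = 0.0288), with overlap. Ugt1a7c was at 155, 96.9 and 108 CPM against 385 to 806 CPM with a median of 604 (log2 change -2.38 ± 0.21, adjusted p = 0.000107). Summed over the 9 Ugt1a rows, the level was 535 ± 118 CPM in the 3 libraries and 942 ± 225 CPM in the 9. Over the 8 rows without Ugt1a7c it was 415 ± 86.6 CPM in the 3 libraries and 350.3 ± 92.6 CPM in the 9.

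Other leading genes also share their place with a neighbour. Gp1bb, the beta chain of platelet glycoprotein Ib, was at 98.0, 71.3 and 87.4 CPM against 2.46 to 11.5 CPM (log2 change 3.76 ± 0.24, adjusted p = 6.29e-06). It overlaps a septin gene on the same strand, and of their joint counts it held 28.4% to 31.0% in the 3 libraries and 1.16% to 4.42% in the 9. Map3k12, a kinase of stress signalling, was at 39.5, 36.7 and 32.1 CPM against 2.07 to 6.25 CPM (log2 change 3.32 ± 0.28, adjusted p = 9.82e-05). It overlaps Pcbp2 on the other strand, whose level was 144 ± 22.4 CPM in the 3 libraries and 251 ± 24.2 CPM in the 9. Pabpn1, the nuclear poly(A)-binding protein, was at 234, 190.4 and 218 CPM against 78.2 to 109 CPM (log2 change 1.20 ± 0.11, adjusted p = 0.000107). Its overlapping partner on the same strand, Gm20521, moved the same way, with 102 ± 13.8 CPM in the 3 libraries and 47.8 ± 6.18 CPM in the 9. Over all pairs of overlapping rows with at least 50 counts together in every library, the lesser partner held a larger part in all 3 libraries than in all 9 for 224 of 3022 pairs on opposite strands (7.41%) and 86 of 1426 on the same strand (6.03%). It held a smaller part in all 3 for 111 (3.67%) and 45 (3.16%).

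Phlda1, Hoxb4 and Gdpd3 complete the 10 higher genes with the smallest p. Phlda1, a pleckstrin homology-like domain gene expressed in intestinal progenitors, was at 75.9, 62.6 and 72.3 CPM against 16.7 to 28.2 CPM (log2 change 1.63 ± 0.15, adjusted p = 0.000107). Hoxb4, a homeobox gene of the body axis, was at 79.6, 97.6 and 71.7 CPM against 10.5 to 34.0 CPM (1.89 ± 0.18, adjusted p = 0.000156). Gdpd3, a phosphodiesterase of lysophospholipids, was at 25.1, 24.2 and 21.2 CPM against 4.69 to 9.08 CPM (1.76 ± 0.19, adjusted p = 0.000512). All 3 libraries lay above all 9 in each of these genes.

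Ppib and Ugt1a7c were among the 10 lower genes with the smallest p. Suclg1, a subunit of the succinyl-CoA ligase of the citric acid cycle, was at 109, 111 and 126 CPM against 183 to 223 CPM (log2 change -0.78 ± 0.10, adjusted p = 0.000885). Aldh6a1, a mitochondrial dehydrogenase of valine breakdown, was at 17.7, 22.2 and 19.1 CPM against 34.2 to 48.7 CPM (-0.97 ± 0.13, adjusted p = 0.00128). Tcn2, the carrier of vitamin B12 in blood, was at 52.5, 42.1 and 38.7 CPM against 71.5 to 92.1 CPM. All 3 libraries were below all 9 in each case. Gpr128, an adhesion receptor, was at 155, 184 and 136 CPM against 303 to 442 CPM, and Slc10a5, of the bile acid transporter family, at 20.4, 19.2 and 16.0 CPM against 32.9 to 52.7 CPM. Erlin2, of lipid rafts in the endoplasmic reticulum, was at 72.6, 66.3 and 52.3 CPM against 105 to 134 CPM. Vps35, a core protein of the retromer that returns cargo from endosomes, was at 61.9, 61.6 and 67.1 CPM against 101 to 133 CPM, and the row listed as ENTPD4 at 3.34, 4.37 and 4.23 CPM against 10.4 to 19.8 CPM. The adjusted p of these last 5 genes and of Tcn2 ran from 0.000521 for Gpr128 to 0.00129 for Slc10a5. The leading genes other than Ugt1a8 and Ugt1a9 all passed when any single library was left out, with a highest adjusted p of 0.0286 for Aldh6a1.

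**Figure D3:**
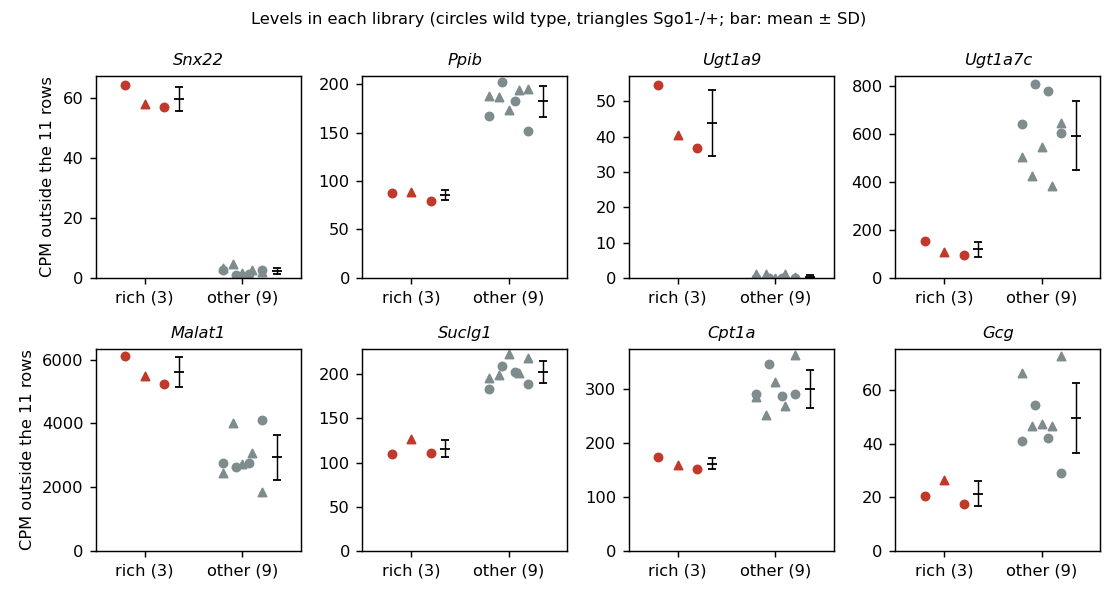
CPM outside the 11 rows for 8 genes in the 3 mitochondrial-rich libraries (red) and the other 9 (grey), circles for wild type and triangles for Sgo1-/+, with mean ± SD beside each set. Snx22, Ugt1a9 and Malat1 are higher in all 3 libraries, and Ppib, Ugt1a7c, Suclg1, Cpt1a and Gcg are lower in all 3.

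Nuclear genes of the respiratory chain were more often lower than higher. Of 37 nuclear subunits of complex I, the entry point of electrons from NADH, 1 was higher and 11 were lower, with a median log2 change of -0.13. All genes had 12.7% higher, 11.7% lower and a median of -0.025. In the highest of 5 groups of all genes by mean level, 14.5% were higher and 22.7% lower, with a median of -0.12. Neither this list nor those below were compared with genes of a like level. Ndufa4, a small subunit first assigned to this complex, was at 27.1, 34.3 and 24.8 CPM against 46.2 to 97.6 CPM (-1.19 ± 0.23, adjusted p = 0.00485, and 0.0597 without Sgo1-/+ 3). Ndufb6, of its membrane arm, was at 12.7, 9.08 and 11.5 CPM against 18.4 to 39.4 CPM (-1.25 ± 0.25, adjusted p = 0.00499). Of 25 nuclear subunits of complexes II to IV, 1 was higher and 6 lower. Uqcrc1, a core protein of complex III, was at 150.5, 148 and 159 CPM against 198 to 287 CPM (-0.70 ± 0.12, adjusted p = 0.0031), and Sdha, the flavoprotein of succinate dehydrogenase, at 309, 231 and 256 CPM against 349 to 460.4 CPM (-0.63 ± 0.12, adjusted p = 0.00454). Of 16 subunits of ATP synthase 7 were lower, with a median of -0.21. Their summed level was 3504 to 4216 CPM in the 3 libraries and 4655 to 5535 CPM in the 9, without overlap. Atp5b, the catalytic beta subunit, was at 905, 795 and 778 CPM against 1158 to 1342 CPM (-0.60 ± 0.11, adjusted p = 0.00367). Without Sgo1-/+ 3 the lower calls in the 3 lists were 3, 4 and 3.

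Genes that keep and read the mitochondrial genome were mixed. Of 17 genes of its replication and transcription 1 passed, Tfam, which packs the genome and helps to start its transcription. Tfam was at 21.7, 24.6 and 21.5 CPM against 26.7 to 41.1 CPM (-0.62 ± 0.14, adjusted p = 0.0099, and 0.0881 without Sgo1-/+ 3). Of 20 genes of mitochondrial RNA processing and decay 6 were lower and 1 higher, and 0 higher and 1 lower without Sgo1-/+ 3. Grsf1, of the mitochondrial RNA granules, was at 26.1, 36.3 and 27.2 CPM against 42.0 to 59.2 CPM (-0.77 ± 0.15, adjusted p = 0.00419, and 0.0583 without Sgo1-/+ 3). Trmt10c, a part of mitochondrial RNase P, was at 9.36, 9.08 and 9.07 CPM against 13.5 to 21.5 CPM (-0.81 ± 0.18, adjusted p = 0.00857, and 0.0911 without Sgo1-/+ 3). Of 14 regulators of mitochondrial biogenesis 4 were higher and 4 lower, and 0 higher and 2 lower without Sgo1-/+ 3. Nrf1, a transcription factor of nuclear respiratory genes, was at 45.1, 46.1 and 54.7 CPM against 25.5 to 38.2 CPM (0.72 ± 0.15, adjusted p = 0.00556, and 0.0768 without Sgo1-/+ 3). Gabpa, which acts on many of the same genes, was at 20.7, 20.5 and 20.6 CPM against 33.5 to 51.8 CPM (-0.98 ± 0.14, adjusted p = 0.00151).

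Genes of protein import were mostly lower among those called. Of 27 genes of import, chaperones and proteases 10 were lower and 1 higher, with a median of -0.24. Without Sgo1-/+ 3 the calls were 0 higher and 2 lower. Grpel1, a cofactor of the import motor, was at 31.8, 18.5 and 32.4 CPM against 45.9 to 57.5 CPM (-0.83 ± 0.16, adjusted p = 0.00417). Pmpcb, which cuts targeting peptides, was at 48.5, 45.1 and 40.2 CPM against 57.6 to 73.7 CPM (-0.57 ± 0.11, adjusted p = 0.00499, and 0.0708 without Sgo1-/+ 3). Of 75 mitochondrial ribosomal proteins 6 were higher and 10 lower, which became 1 and 19 under total counts. The share called in either direction, 21.3%, was below the 24.5% of all genes, and without Sgo1-/+ 3 the calls were 0 higher and 1 lower. Mrps5 was lower (-0.64 ± 0.14, adjusted p = 0.0083) and Mrpl24 higher (0.39 ± 0.092, adjusted p = 0.0107, and 0.0871 under total counts). Of 18 rows for fusion, fission and mitophagy 1 was higher, Bnip3l, a mitophagy receptor (0.79 ± 0.19, adjusted p = 0.0119, and 0.124 without Sgo1-/+ 3), and 2 were lower, among them Opa1, which fuses inner membranes (-0.52 ± 0.13, adjusted p = 0.0123).

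The matrix pathways had the lowest medians among the mitochondrial lists. Of 18 genes of the citric acid cycle 8 were lower and 1 higher, with a median of -0.29. The higher one was Idh3a, a subunit of isocitrate dehydrogenase, at 632, 370.1 and 648 CPM against 181 to 373 CPM, where the highest of the 9 just passed wild type 5 (1.14 ± 0.20, adjusted p = 0.00296, and 0.0518 without Sgo1-/+ 3). Mdh2, malate dehydrogenase, was at 160.2, 162 and 160.3 CPM against 212 to 288 CPM (-0.63 ± 0.12, adjusted p = 0.00384). Of 20 genes of fatty acid oxidation 7 were lower, with a median of -0.34. Cpt1a, which commits fatty acids to mitochondrial uptake, was at 174, 153 and 159 CPM against 252 to 364 CPM (-0.90 ± 0.13, adjusted p = 0.00154). Etfdh, which passes their electrons to ubiquinone, was at 73.2, 54.2 and 67.1 CPM against 88.1 to 123 CPM (-0.74 ± 0.13, adjusted p = 0.00296). Of 10 genes of butyrate uptake and ketone production 2 were lower, among them Acat1, a thiolase of ketone metabolism (-0.41 ± 0.11, adjusted p = 0.0221). Acat1 did not pass without wild type 3 (adjusted p = 0.0715), wild type 5 (0.0698) or Sgo1-/+ 3 (0.067). Without Sgo1-/+ 3 the citric acid cycle and fatty acid oxidation lists had 4 lower calls each. Of 23 targets of glycolysis and hypoxia 2 were higher and 3 lower.

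**Figure D4:**
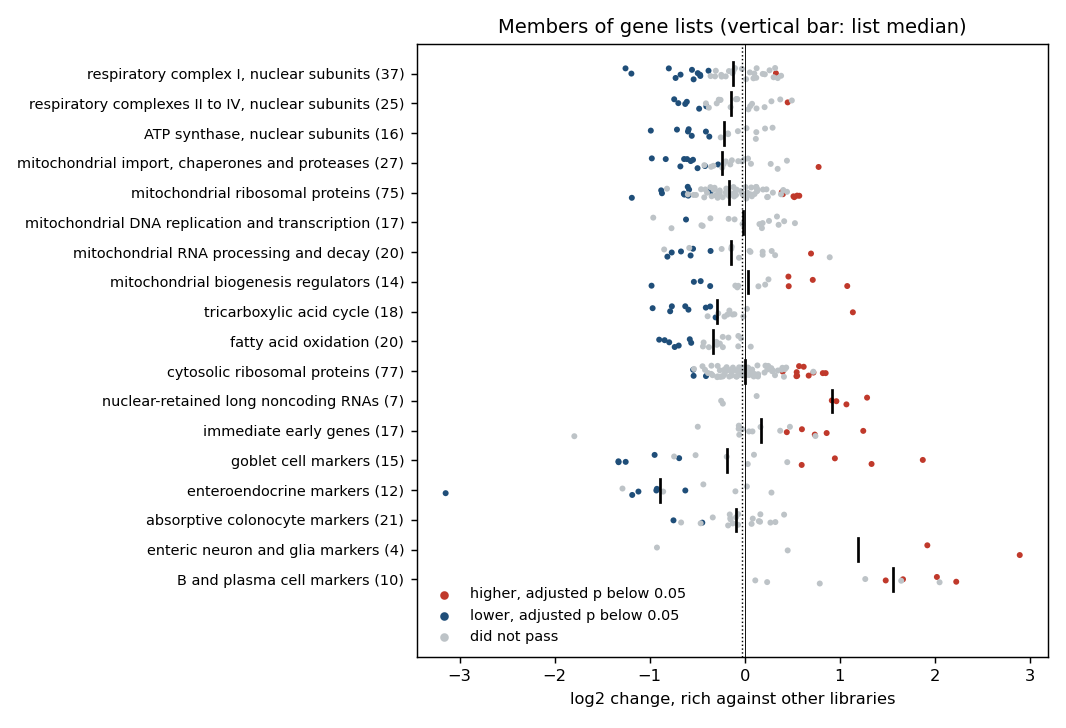
Log2 change between the 3 mitochondrial-rich libraries and the other 9 (horizontal axis) for each tested member of the gene lists named on the vertical axis, red and blue where the adjusted p is below 0.05, with the list median as a bar and the median of all genes, -0.025, dotted. The enteroendocrine list has a median of -0.89 and the fatty acid oxidation list one of -0.34.

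Of 7 long noncoding RNAs that stay in the nucleus, 4 passed as higher and 3 did not pass, with a median of 0.92, and under total counts 3 were higher and 1 lower. Without Sgo1-/+ 3 the list had 0 higher and 0 lower. Malat1, an abundant RNA of nuclear speckles, was at 6126, 5226 and 5495 CPM against 1855 to 4102 CPM (0.92 ± 0.20, adjusted p = 0.00744, and 0.0656 without Sgo1-/+ 3). Neat1, the scaffold of paraspeckles, was at 1435, 1079 and 1456 CPM against 459 to 952 CPM (0.96 ± 0.19, adjusted p = 0.00499, and 0.0506 without Sgo1-/+ 3). Cytosolic ribosomal proteins showed 10 higher and 3 lower of 77, and 5 and 9 under total counts. The share called, 16.9%, was below that of all genes, with a median log2 change of 0.0065, and without Sgo1-/+ 3 the calls were 2 higher and 0 lower. Rpl41, a very short ribosomal protein, was at 1209, 1112 and 965 CPM against 488 to 727 CPM (0.82 ± 0.14, adjusted p = 0.00299), and Rps15 at 695, 701 and 629.7 CPM against 348 to 537 CPM (0.67 ± 0.14, adjusted p = 0.00644, and 0.055 without Sgo1-/+ 3).

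The calls also went with gene structure and level. Genes with a match in the annotation were ranked by the summed length of their introns and divided into 5 groups of 3053 or 3054. In the group with the longest introns 19.9% were higher and 8.91% lower, and in the group next to it 9.96% were higher and 16.2% lower. In the group with the shortest introns 14.1% were higher and 7.56% lower, so the calls followed no single direction with intronic length (Spearman's rho with the log2 change 0.029 across genes). By mean level, the median log2 change went from 0.43 in the lowest of 5 groups to -0.12 in the highest, and the share of genes called lower from 1.48% to 22.7%. The 931 tested genes that met the filter only with the help of the 3 libraries were admitted through their levels there. Their part in the lowest group was not counted, so the trend with level may come in part from the filter. Among the more abundant genes alone, 23.5% of those with the longest introns were higher and 13.4% lower. Over 5 groups of GC content the share called higher went from 14.1% at the lowest content to 11.3% at the highest, and the share called lower went from 457 of 3054 genes to 252 of 3054 (8.25%). Genes are not independent replicates, and these are descriptions.

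**Figure D5:**
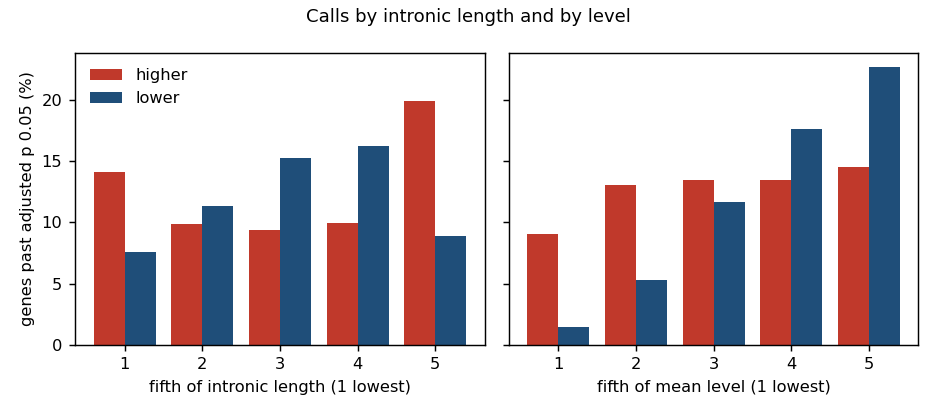
Percent of genes higher (red) or lower (blue) in the 3 libraries at an adjusted p below 0.05, by group of intronic length (left) and by group of mean level (right). In the group with the longest introns 19.9% were higher and 8.91% lower, and at the highest level 22.7% were lower.

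Classes of rows, chosen after their values were seen, differed too. Olfactory receptor genes together held 3403 to 5056 CPM in the 3 libraries and 983 to 2676 CPM in the 9. Long intergenic noncoding RNAs held 18707 to 20690.1 CPM in the 3 libraries and 9171 to 13951 CPM in the 9. Neither class overlapped between the sets. This was not particular to them: antisense, miscellaneous RNA, sense intronic and processed transcript rows were also higher without overlap. With no TMM scaling the antisense and processed transcript ranges did overlap. Small nuclear RNA rows held 602 to 1300.1 CPM in the 3 libraries and 84.2 to 672 CPM in the 9, and protein-coding genes 857002 to 933582 CPM in the 3 libraries and 795972 to 952981 CPM in the 9, both with overlap. As CPM of the plain totals, with no TMM scaling, the protein-coding ranges were 762498 to 840283 and 837527 to 923168. The part of these classes in the gene results was not tested.

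The lists of early and stress responses differed in the direction of their calls. Of 17 immediate early genes 5 were higher and 0 lower, and 0 were higher without Sgo1-/+ 3. The share called was 29.4%, beside 24.5% of all genes, and the median was 0.17. Klf4, a transcription factor of the differentiated epithelium, was at 2278, 1982 and 2362 CPM against 893 to 1509 CPM (0.86 ± 0.15, adjusted p = 0.00346, and 0.0514 without Sgo1-/+ 3). Atf3 was at 77.9, 65.6 and 64.7 CPM against 22.7 to 51.7 CPM (0.74 ± 0.20, adjusted p = 0.0203, and 0.138 without Sgo1-/+ 3). Of 17 genes of the unfolded protein and integrated stress responses 2 were higher and 4 lower, and 1 higher and 1 lower without Sgo1-/+ 3. The share called was 35.3%, and 13 of the 17 lay below 0, with a median of -0.40. Ddit3, which encodes the stress factor CHOP and overlaps Mars on the other strand, was at 50.8, 31.6 and 45.1 CPM against 12.2 to 23.3 CPM (1.28 ± 0.18, adjusted p = 0.00148). Xbp1, which drives secretory capacity, was at 70.6, 100.3 and 94.1 CPM against 128 to 197 CPM (-0.84 ± 0.15, adjusted p = 0.00355). Of 10 cytosolic heat shock genes 1 was lower (10%), the chaperone Hsp90ab1 (-0.69 ± 0.15, adjusted p = 0.00797, and 0.0832 without Sgo1-/+ 3). Of these 10 genes 8 lay below 0, with a median of -0.69.

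Markers of colonic epithelium were abundant in both sets. In bulk tissue, fewer cells of a type and less RNA per cell cannot be told apart. The 21 absorptive colonocyte markers summed to 28819 to 34168 CPM in the 3 libraries and 27548 to 45879.9 CPM in the 9. Of them 2 were lower, Lypd8, which keeps bacteria off the epithelium (-0.75 ± 0.17, adjusted p = 0.00969, and 0.0899 without Sgo1-/+ 3), and Car2, a carbonic anhydrase (-0.45 ± 0.15, adjusted p = 0.0457, and 0.181 without Sgo1-/+ 3). Goblet cell markers went both ways, with 4 of 15 higher and 5 lower, and 2 higher and 1 lower without Sgo1-/+ 3. Klk1, a kallikrein, was at 489, 769 and 410.4 CPM against 1111 to 1445 CPM (-1.25 ± 0.18, adjusted p = 0.00153), and Spink4 at 694, 431 and 878 CPM against 171 to 393 CPM (1.33 ± 0.21, adjusted p = 0.00211).

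Of 12 enteroendocrine markers 6 passed as lower and none as higher, with a median of -0.89, and their sum was 329 to 504 CPM in the 3 libraries and 562 to 836 CPM in the 9, without overlap. Gcg, which encodes the precursor of glucagon-like peptides, was at 20.4, 17.5 and 26.3 CPM against 29.2 to 72.6 CPM (-1.12 ± 0.21, adjusted p = 0.00413). Tph1, the enzyme that starts serotonin synthesis, was at 29.1, 31.0 and 21.5 CPM against 37.4 to 60.7 CPM (-0.93 ± 0.16, adjusted p = 0.00341, and 0.0554 without Sgo1-/+ 3). Chgb, of the secretory granules, was at 217, 166 and 108 CPM against 212 to 382 CPM, which overlapped (-0.92 ± 0.22, adjusted p = 0.0116, and 0.124 without Sgo1-/+ 3). Without Sgo1-/+ 3 the list had 2 lower calls. Of 23 proliferation genes 4 were lower and 1 higher, and 1 higher and 0 lower without Sgo1-/+ 3. The share called, 21.7%, was below the 24.5% of all genes. The log2 change was below 0 for 21 of the 23, with a median of -0.52, and -0.25 without Sgo1-/+ 3. Aurkb, a mitotic kinase, was at 1.34, 2.69 and 3.02 CPM against 3.79 to 12.1 CPM (-1.77 ± 0.39, adjusted p = 0.00782, and 0.0597 without Sgo1-/+ 3), and Tyms, which makes thymidylate, at 110.0, 98.2 and 112 CPM against 43.7 to 79.1 CPM (0.94 ± 0.16, adjusted p = 0.00272). The Aurkb levels in the 3 libraries, which are shallow, rest on few counts. Of 14 crypt markers 1 was higher, Znrf3 (1.13 ± 0.20, adjusted p = 0.00321, and 0.0662 without Sgo1-/+ 3), and 2 were lower, among them the Wnt target Axin2 (-0.91 ± 0.23, adjusted p = 0.0155, and 0.118 without Sgo1-/+ 3). The share of crypt markers called, 21.4%, was also below that of all genes.

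Among markers of cells outside the epithelium, more calls were higher than lower. Sox10, the glial transcription factor, was at 15.4, 45.1 and 26.0 CPM against 0.260 to 16.8 CPM (2.89 ± 0.69, adjusted p = 0.0113, and 0.181 without Sgo1-/+ 3), and the highest of the 9, wild type 1, lay above wild type 3. Sox10 was one of 2 higher genes among 4 neuron and glia markers tested. The 10 markers of that list summed to 59.2 to 94.2 CPM in the 3 libraries and 9.26 to 40.5 CPM in the 9, without overlap. Of 10 B and plasma cell markers 4 were higher, among them Cd79b of the B cell receptor, at 5.02, 4.04 and 6.05 CPM against 0.262 to 2.76 CPM (2.02 ± 0.52, adjusted p = 0.015, and 0.136 without Sgo1-/+ 3). Without Sgo1-/+ 3 that list had 0 higher calls. Its sum, 202 to 404 CPM in the 3 libraries and 122 to 348 CPM in the 9, overlapped. All 10 of its tested markers had a log2 change above 0, with a median of 1.56. Of 12 T and NK cell markers 0 passed, with a median of -0.23. Of 11 macrophage, dendritic and granulocyte markers 2 were higher, and C1qa, of the complement system, had a log2 change of -0.93 ± 0.44 (adjusted p = 0.136). Mrc1, the mannose receptor of tissue macrophages, was at 122, 133 and 97.7 CPM against 14.4 to 62.5 CPM (1.71 ± 0.36, adjusted p = 0.00687, and 0.0733 without Sgo1-/+ 3). Of 7 endothelial markers 1 passed, with a median of -0.065 and 4 below 0, among them Plvap (-1.37 ± 0.66, adjusted p = 0.142). The one that passed was Flt1, a VEGF receptor, at 82.3, 122 and 58.1 CPM against 17.2 to 50.2 CPM (1.43 ± 0.21, adjusted p = 0.00158). Summed over the 10 endothelial markers listed, Flt1 among them, the level was 93.5 to 151 CPM in the 3 libraries. In the 9 it was 42.8 to 82.3 CPM, without overlap. Of 11 fibroblast and matrix markers 1 was higher and 1 lower, the growth factor receptor Pdgfra, at 0.669, 1.01 and 0.907 CPM against 1.42 to 3.63 CPM (-1.64 ± 0.43, adjusted p = 0.0175, and 0.0937 without Sgo1-/+ 3). The 3 libraries held 3192709 to 3651574 counts in tested genes, so their Pdgfra levels rest on very few counts. Of 10 adipocyte markers 1 was lower, Pck1, an enzyme of glucose synthesis, at 116, 108 and 88.6 CPM against 135 to 214 CPM (-0.65 ± 0.17, adjusted p = 0.0163, and 0.172 without Sgo1-/+ 3). The list as a whole did not follow Pck1: 6 of its members lay above 0 and 4 below, with a median of 0.92. Smooth muscle markers summed to 47.8 to 57.5 CPM in the 3 libraries and 36.9 to 66.5 CPM in the 9. The part of these cell markers in the other results was not tested.

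The targeted gene, listed as Sgol1, was at 4.35, 5.05 and 3.63 CPM in the 3 libraries, inside the range of 1.89 to 9.29 CPM in the other 9. The genotypes were then compared among the 9 libraries alone, which gives the study's own contrast where no library is above the 30% limit. The mean share of the 11 rows still differed there, at 20.7% ± 3.66 in wild type and 15.1% ± 3.87 in Sgo1-/+. Genotype and share are thus not fully separate in this contrast. Among the 9, Sgol1 had a mean of 4.96 ± 3.18 CPM in wild type (SD, n = 4) and 3.00 ± 0.509 CPM in Sgo1-/+ (n = 5), with overlap (log2 change -0.74 ± 0.39, edgeR adjusted p = 0.486). Of 14361 genes tested, 0 (0.0%) passed in edgeR, where 1683 had an unadjusted p under 0.05, and DESeq2 called 129, with 62 higher and 67 lower. In edgeR 7 genes passed without Sgo1-/+ 4 and 5 without Sgo1-/+ 6.

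For the leading 3 genes of either direction, levels are given first in the 9 libraries compared and then in the 3 left out, in the order wild type 3, wild type 5 and Sgo1-/+ 3. Hoxa11as, an antisense RNA that overlaps Hoxa11, ran from 16.4 to 24.6 CPM in the 4 wild type libraries and from 27.2 to 75.1 CPM in the 5 Sgo1-/+ libraries, and was at 45.1, 51.1 and 109 CPM in the 3. Wild type 3 and wild type 5 lay inside the range of the 5 Sgo1-/+ libraries, and Sgo1-/+ 3 lay above all others. Gnai1, an inhibitory G protein subunit, ran from 1.96 to 2.76 CPM in wild type and from 3.71 to 9.38 CPM in Sgo1-/+, and was at 5.35, 7.40 and 4.84 CPM in the 3. All 3 lay inside the Sgo1-/+ range. Glul, which makes glutamine, ran from 214 to 259 CPM in wild type and from 286 to 514 CPM in Sgo1-/+, and was at 318, 273 and 405 CPM in the 3. Wild type 3 and Sgo1-/+ 3 lay inside the Sgo1-/+ range and wild type 5 between the ranges. Abca12, a lipid transporter, ran from 155 to 168 CPM in wild type and from 75.9 to 116 CPM in Sgo1-/+, and was at 180.2, 120.1 and 134 CPM in the 3. Wild type 3 lay above both ranges, and the other 2 lay between them. Cyp2j6, a cytochrome P450, ran from 88.8 to 125 CPM in wild type and from 56.9 to 73.8 CPM in Sgo1-/+, and was at 85.6, 64.3 and 74.1 CPM in the 3. Wild type 3 and Sgo1-/+ 3 lay between the ranges and wild type 5 inside that of Sgo1-/+. Gatsl2 ran from 23.5 to 34.3 CPM in wild type and from 13.8 to 19.5 CPM in Sgo1-/+, and was at 40.1, 28.9 and 16.3 CPM in the 3. Wild type 3 lay above both ranges, wild type 5 inside that of wild type and Sgo1-/+ 3 inside that of Sgo1-/+. With all 12 libraries in the fit the log2 change of Hoxa11as went from 1.48 ± 0.27 to 1.15, that of Gnai1 from 1.67 ± 0.31 to 0.98 and that of Gatsl2 from -0.78 ± 0.16 to -0.89. The genes were chosen by their p among the 9 libraries, and a choice of that kind alone favours a smaller change once libraries are added, so these shifts are a description. All 6 genes had an adjusted p of 0.274 in edgeR, and in DESeq2 it ran from 0.000554 for Hoxa11as to 0.00772 for Gatsl2.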

How the data were processed

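Poly(A) RNA was isolated with an mRNA kit after Trizol extraction and read on a MiSeq from TruSeq V2 libraries, per the labels' protocols. The submitters' processing notes list mm10 and DESeq. No source used here names the aligner, the counting tool or its strand setting. Before deposit the authors made one raw value per row by counting, a kind of expected count (estimated count), because 69.6% of the values above 0 are not whole. The second column, log2 values made by the authors from the same counts, was recomputed to within 0.001 and not used further.

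Each of the 12 files holds 38592 rows. The 505 rows that carry no Ensembl identifier (1.79% to 5.40% of counts) and the 11 rows were dropped, and values were rounded. Totals ran from 5711553 to 10198304 counts per library. edgeR 4.0.16 in R 4.3.3 was used (glmQLFit, glmQLFTest, TMM scaling) after filterByExpr (minimum count 10, minimum total 15), with Benjamini-Hochberg adjustment over all genes tested at 0.05. A prior count of 2 went into log2 CPM. The fit was tested on simulated data. DESeq2 1.42.0 and changes of scaling, filter, model terms and libraries were alternatives. For single values an exact two-sided permutation test was run. Transcripts were aligned by blastn 2.17.0.

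The members, lists and tests were chosen with earlier results of these data known, and lists carry no test. The rule for named genes took Sgo1, AY036118, Lars2, the 10 genes of smallest p per direction with a mean of at least 10 counts, leaving out predicted genes and small RNAs, 3 members per list (2 where no member passed) and 3 genes per direction for genotype. Only some of these are printed. Overlapping partners and the other Ugt1a rows were named after their values were seen.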

Additional observations from a re-analysis of the deposited data

Results flagged for a closer look

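In the other 9 libraries, 97 quantities were checked for 1 library far from the rest, meaning a gap to the nearest library over 0.493 of the whole range. This held for 8, and chance flags about 1 in 20 groups. Wild type 1 was that library in 4 of them. It had 16772 genes with at least 1 CPM, where the other 8 libraries had 14524 to 15622. Its score on the first principal component was 60.7, against -66.0 to -5.69. Its level of Sox10 was 16.8 CPM, against 0.260 to 5.53 CPM, and that of Ugt1a8 was 2.84 CPM, against 0 to 1.17 CPM. Wild type 4 had an AY036118 level of 102447 CPM, against 29679 to 66127 CPM, and an Atp5l level of 47.6 CPM, against 25.3 to 35.7 CPM. Sgo1-/+ 2 had 373 CPM of Idh3a, against 181 to 269 CPM. Wild type 2 had 9.29 CPM of Sgol1, against 1.89 to 5.13 CPM.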

How the results depend on the processing

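The count of 3797 genes lay between 2932 and 4561 under the other scalings, no filter on low counts, DESeq2, the 11 rows kept, the ribosomal RNA list dropped, no genotype term, the share as a number and both uses of the column suffix. Without single libraries it ran from 656 (without Sgo1-/+ 3) to 4660 (without wild type 1). With the replicate number as a block, edgeR called 0 genes, where 1363 had an unadjusted p under 0.05. Wild type 3 and Sgo1-/+ 3 share a number. Under the block only wild type 5 and Sgo1-/+ 5 thus pair a library of the 3 with a library of the 9. The contrast then rests on that pair, so the 0 calls say little. The numbers did not pair the libraries: 3 of 6 same-numbered pairs had a correlation over 0.1, and 1 library correlated best with its own number. A pair of settings was chosen after seeing the data: wild type libraries alone gave 22 genes, and the share as a number within the 9 other libraries gave 14. Of 85 named genes called, 42 kept the call without Sgo1-/+ 3, 10 in wild type alone and 1 within the 9 others, where 12 changed sign. With the share as a number, a log2 change is a slope per 22.1 percentage points, the difference of the group means, while the 9 others span 11.2% to 23.6%. Within the 9 others this slope was -2.86 for Ugt1a10, 0.39 for Gpr128, 0.43 for Mrps5, 0.0091 for Trmt10c, 0.11 for Pmpcb, 1.10 for Pdk1, 1.21 for Lypd8, 0.020 for Klk1, 0.18 for Pdgfra, -1.02 for Dcn, -0.64 for Sox10 and 0.15 for Irgm1. None of these 12 passed there in edgeR, with adjusted p from 0.348 for Pdk1 to 0.996 for Trmt10c. Ighm turned to -0.023 under the block. Sgol1, near 0, turned to -0.11 under total counts, -0.029 without a filter, -0.084 with the share as a number, -0.21 without the suffixed libraries, -0.17 with the suffix as a term, -0.076 in wild type alone and -1.11 within the 9 others, and ran from -0.13 to 0.35 without single libraries. Genes with at least 1 CPM differed by 546 to 1235 without single libraries, and passed the threshold without wild type 1 (1056, exact permutation p = 0.0242). At 10 CPM the difference turned to -221. The AY036118 difference ran from 3.68 to 6.52 percentage points without single libraries and was 4.94 without the suffixed ones. The genotype contrast called 129 genes in DESeq2 and 0 to 7 in edgeR without single libraries, and 0 with the block, where 973 had an unadjusted p under 0.05. The cause of these changes was not tested.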
